A study of Mus musculus with 8 samples.

Results

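The genes described here are 10 that axon-tract microglia and other early postnatal microglia are known to express, *Spp1*, *Gpnmb*, *Igf1*, *Fabp5*, *Lpl*, *Itgax*, *Lyz2*, *Lyz1*, *Ch25h* and *Csf1*. They were chosen by name, and each matched 1 of the 55573 genes listed in the deposited count matrix. Microglia were sorted from the brains of 4 mutant and 4 control mice at postnatal day 60, with 1 RNA library per mouse. The mutants were *Smad2/3 fl/fl;Cx3cr1 Cre* mice, in which Cre recombinase made from the *Cx3cr1* locus is used to delete *Smad2* and *Smad3*. These genes encode the 2 SMAD proteins that carry receptor signals of the canonical TGFβ pathway to the nucleus. The *Cx3cr1* locus is active in microglia and also in related macrophages, so the deletion is not restricted to microglia. The sample labels call the controls WT and the design text calls them littermates, whereas the Methods state that controls generally carried Cre and a floxed allele, so whether all 8 mice carried Cre is not settled by the sources used here. The Methods describe a Percoll gradient and flow cytometry of tdTomato+ cells for CD45 and CD11b. Whether these genes stood higher or lower in microglia sorted from these adult mutants than in those of the controls is the question of the comparison.

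Axon-tract microglia are a population of the first postnatal days that gathers in developing white matter and engulfs material there. They make secreted factors such as osteopontin and insulin-like growth factor 1, along with proteins for taking up and storing lipid, and they switch most of these genes off as the brain matures. Many of the same genes return in microglia around plaques and in demyelinated tissue, which is why they are read as markers of an immature or a disease-associated state.

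The libraries held between 37649124 and 40932680 counts on genes in the controls and between 35639502 and 41946479 in the mutants. Levels are given as CPM, counts per 1000000 counts on the tested genes of a library, after scaling by the trimmed mean of M-values (TMM). Differential expression was tested with edgeR's quasi-likelihood test, and a Benjamini-Hochberg adjusted p under 0.05 made a call. *Smad3* was lower in the mutants (log2 fold change -1.33, adjusted p = 0.0429), a call lost in 7 of the 8 fits that left out a library, the exception being without mutant 3, whereas *Smad2* did not pass the test (log2 fold change -0.34, adjusted p = 0.340). These gene totals do not show which exons the counts came from. *Xist*, transcribed from the inactive X chromosome of females, stood between 99.5 and 183 CPM in the controls and between 0.0276 and 0.562 CPM in the mutants, while the Y-linked *Ddx3y* stood between 0.0269 and 0.224 CPM in the controls and between 9.74 and 59.8 CPM in the mutants. Sex-linked expression therefore divided the libraries as the genotype did, and its part in every difference below cannot be told apart from that of the genotype. Of 9 microglia marker genes, 6 were lower in the mutants, and their summed level fell from between 30214 and 45314 CPM to between 8948 and 11889 CPM. Of 6 border macrophage markers (*Mrc1*, *Pf4*, *Lyve1*, *Cd163*, *F13a1* and *Cbr2*), 4 were higher, with a summed level between 49.9 and 94.4 CPM in controls and between 1160 and 1823 CPM in mutants, and none was at 0 in all libraries. No call was made among 8 monocyte and neutrophil markers, whose sums lay between 555 and 1873 CPM in controls and between 305 and 890 CPM in mutants. In sorted bulk RNA, a different number of cells of a type and a different amount of RNA per cell cannot be told apart.

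The 10 genes moved in different directions. Of the 10, 5 were called higher in the mutants (*Gpnmb*, *Igf1*, *Lyz2*, *Lyz1* and *Ch25h*), 1 was called lower (*Csf1*), and 4 had no call (*Spp1*, *Fabp5*, *Lpl* and *Itgax*). All 10 passed the filter of at least 10 counts in at least 4 libraries. Over the 20153 genes that passed it, 12.3% were called, 4.36% higher and 7.97% lower. These shares moved with the libraries and the tool. The 2485 calls, 878 of them higher, were 1572 without control 2 (525 higher), 1567 without control 3 (562 higher) and 1687 without mutant 2 (573 higher), and DESeq2 made 4281 (1903 higher). The median log2 fold change was 1.88 over the 10 genes and 0.01 over all genes tested. *Lyz1* and *Lyz2* share exon sequence and moved alike, so the count of 5 and this median may hold 1 change under 2 names. For 7 of the 10 genes the CPM of controls and mutants did not overlap, with the mutants above the controls for 5 and below for 2. Over all genes tested 22.1% did not overlap, 9.04% higher and 13% lower in the mutants. The genes were chosen with results of these data known, so these shares describe the list.

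**Figure D1:**
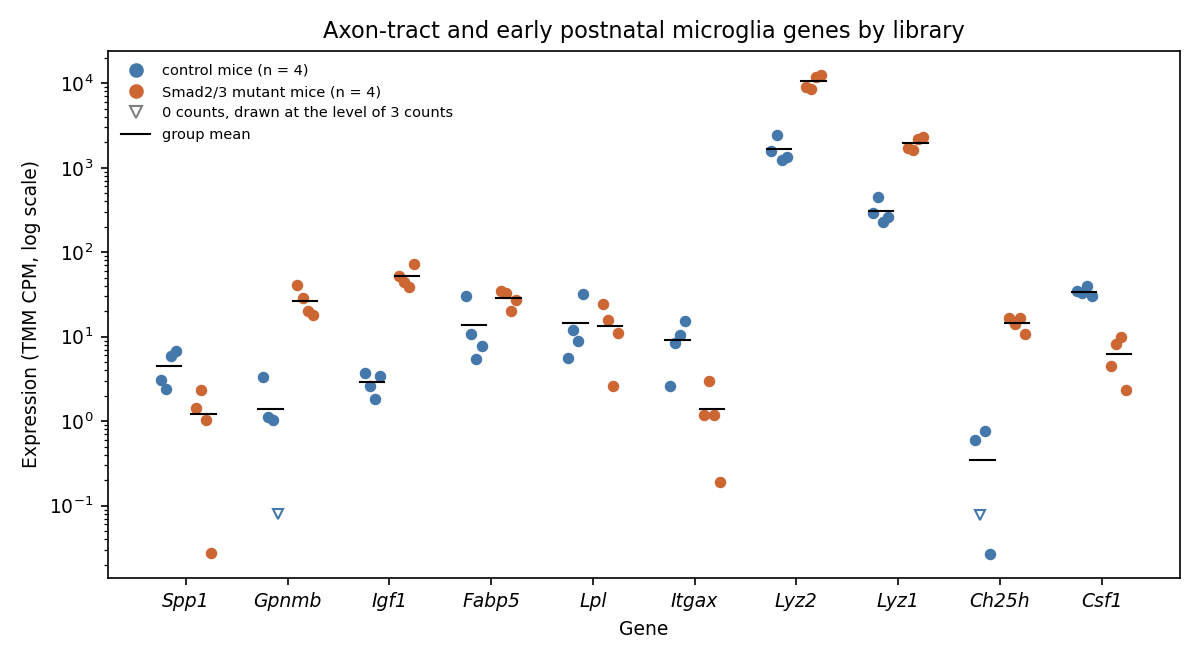
Expression of the 10 genes (TMM CPM, log scale) in each of 4 control and 4 mutant libraries, with group means as bars and libraries without a count drawn as open triangles at the level of 3 counts. The mutants stood above all controls for Gpnmb, Igf1, Lyz2, Lyz1 and Ch25h and below them for Spp1 and Csf1, and the groups overlapped for Fabp5, Lpl and Itgax.

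Compared per kilobase of exon, the order of the genes changed between the groups. The length used was that of all annotated exons of a gene merged, 3567 bases for *Fabp5*. Merged exons can be longer than the spliced transcript, so the places of different genes relative to each other depend on this length. In the controls, *Lyz2* was highest at 1258 ± 423 CPM per kb (SD, n = 4) and *Lyz1* next at 244 ± 80.5, and neither overlapped the gene below it. *Csf1* followed at 6.49 ± 0.762 CPM per kb, and its range overlapped that of *Fabp5*, the next gene. *Igf1* (0.291 ± 0.0854), *Ch25h* (0.248 ± 0.280) and *Gpnmb* (0.212 ± 0.217) were the lowest in CPM per kb, and neighbours among these 3 overlapped. In the mutants, *Lyz2* (8021 ± 1495 CPM per kb) and *Lyz1* (1552 ± 277) again stood apart at the top. *Ch25h* came next at 10.5 ± 2.03 CPM per kb, followed by *Fabp5* at 8.11 ± 1.83, *Igf1* at 5.22 ± 1.51 and *Gpnmb* at 4.12 ± 1.55, each overlapping its neighbour. The lowest levels were those of *Lpl* (1.28 ± 0.862), *Csf1* (1.18 ± 0.657), *Spp1* (0.734 ± 0.585) and *Itgax* (0.291 ± 0.244 CPM per kb), and here too neighbours overlapped. *Igf1*, *Gpnmb* and *Ch25h* thus held the bottom 3 places in controls and were among the upper 6 in mutants.

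*Spp1* and *Igf1* encode secreted factors. *Spp1* makes osteopontin, an extracellular matrix protein that binds integrins and CD44 and is the best-known marker of axon-tract microglia. It lies at chr5:104435118-104441050 on the plus strand (GRCm38, GENCODE M21). *Spp1* stood at 3.05, 2.42, 5.90 and 6.83 CPM in controls 1 to 4 and at 1.43, 2.35, 1.03 and 0.0276 CPM in mutants 1 to 4, where the last value is a single count. Each mutant was below every control, although control 2 and mutant 2 were nearly level. *Spp1* did not pass the test (log2 fold change -1.90 with a standard error of 0.90, adjusted p = 0.199). Leaving out any 1 library gave values between -2.45 and -1.50 and no call. A predicted gene on the same strand, *Gm42793*, overlaps 18.8% of the exon bases of *Spp1*. Reads of the overlap could be left uncounted or placed on either gene.

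*Igf1* was called higher. It encodes insulin-like growth factor 1, which supports the survival and myelination of neighbouring neurons and oligodendrocytes, and lies on chromosome 10. *Igf1* stood at 3.67, 2.60, 1.82 and 3.44 CPM in the controls and at 51.7, 43.9, 38.7 and 72.7 CPM in the mutants. The lowest mutant was far above the highest control, and the means, 2.88 ± 0.846 and 51.7 ± 15.0 CPM (SD, n = 4), differed 17.9-fold. This was a log2 fold change of 4.16 with a standard error of 0.31 (adjusted p = 9.0e-05), and the call was kept in all 8 fits that left out a library. *Spp1* and *Igf1*, both secreted products of axon-tract microglia, therefore differed in direction of fitted change, although only the change of *Igf1* was called.

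*Gpnmb* encodes a glycosylated membrane protein of endosomes and lysosomes that is induced in lipid-loaded macrophages. It was read at 3.36, 1.12 and 1.04 CPM in controls 1 to 3 and had 0 counts in control 4, which allows up to 0.0807 CPM. In the mutants it stood at 40.4, 28.5, 20.3 and 18.1 CPM. Every mutant was above every control, and the ratio of the means was 19.4. Its log2 fold change was 4.28 with a standard error of 0.96 (adjusted p = 0.0206). The adjusted p was 0.0670 without control 2, 0.0662 without control 3 and 0.0515 without mutant 2, and without control 1 the log2 fold change rose to 5.22 (adjusted p = 0.013).

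*Ch25h* encodes cholesterol 25-hydroxylase, which makes the oxysterol 25-hydroxycholesterol from cholesterol. It stood at 0.595 CPM in control 1, at 0 counts in control 2 (which allows up to 0.0781 CPM), at 0.755 CPM in control 3 and at 0.0269 CPM in control 4. The mutants held 16.6, 14.2, 16.6 and 10.7 CPM. Every control was under 1 CPM and every mutant was above 10 CPM, so *Ch25h* passed the filter on low counts mainly through the 4 mutants. The means had a ratio of 42.2, and the fitted log2 fold change was 5.39 with a standard error of 1.02 (adjusted p = 0.0096). The call was kept without any 1 library, with log2 fold changes between 4.98 and 6.10, the last without control 3. The opposite-strand gene *Gm26902* overlaps 11.5% of its exon bases, and without strand the reads of the overlap cannot be told apart.

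**Figure D2:**
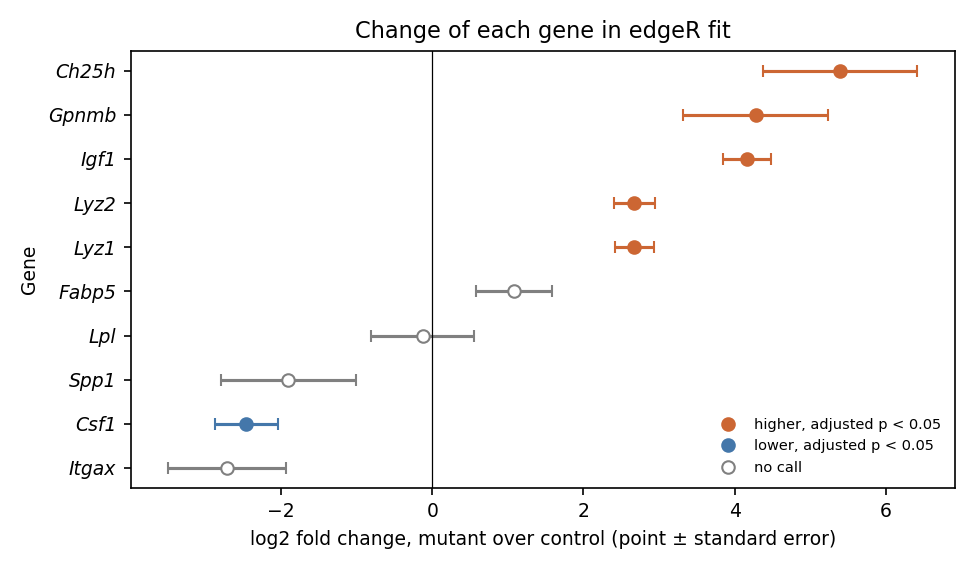
The edgeR log2 fold change of each gene in mutants over controls, with 1 standard error to each side. The 5 genes called higher lie between 2.67 and 5.39, Csf1 is called lower at -2.46, and Spp1, Fabp5, Lpl and Itgax have no call.

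Promoters are shown here for the genes that share a sequence pattern that includes the cores recognised by AP-1 factors. RefSeq promoters of 300 bases (250 before and 50 after the annotated start, GRCm38.p6) were matched for 8 of the 10 genes, giving 9 promoters because *Spp1* has 2 in the table. The pattern was TGANTCA, where N is any base, which reads almost the same on both strands and was searched on both. It covers TGACTCA and TGAGTCA, the cores recognised by AP-1 factors of the FOS and JUN families, and also forms with A or T at the centre. It was present in 3 of the 9 promoters and in 7.81% of 32851 mouse promoters of the same length. The promoters that held it were those of *Gpnmb*, *Igf1* and *Itgax*, shown here 5′ to 3′ with the match in capitals. The first 2 belong to genes called higher and the third to a gene with a negative fold change and no call. *Gpnmb* and *Itgax* hold the AP-1 cores TGACTCA and TGAGTCA, whereas the match of *Igf1* is TGAATCA, with A at the centre.
Gpnmb, chr6:49036268-49036567, plus strand: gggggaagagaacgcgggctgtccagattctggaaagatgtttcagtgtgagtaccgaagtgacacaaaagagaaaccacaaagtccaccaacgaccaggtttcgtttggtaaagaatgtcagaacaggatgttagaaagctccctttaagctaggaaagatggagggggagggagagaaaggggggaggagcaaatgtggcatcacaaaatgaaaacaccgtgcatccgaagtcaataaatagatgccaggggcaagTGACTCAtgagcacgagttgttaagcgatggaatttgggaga
Igf1, chr10:87860861-87861160, plus strand: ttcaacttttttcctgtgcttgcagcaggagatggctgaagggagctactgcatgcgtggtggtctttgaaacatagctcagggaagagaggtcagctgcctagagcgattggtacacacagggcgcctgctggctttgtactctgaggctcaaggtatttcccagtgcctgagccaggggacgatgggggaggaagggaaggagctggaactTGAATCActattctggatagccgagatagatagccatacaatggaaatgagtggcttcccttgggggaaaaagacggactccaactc
Itgax, chr7:128129300-128129599, plus strand: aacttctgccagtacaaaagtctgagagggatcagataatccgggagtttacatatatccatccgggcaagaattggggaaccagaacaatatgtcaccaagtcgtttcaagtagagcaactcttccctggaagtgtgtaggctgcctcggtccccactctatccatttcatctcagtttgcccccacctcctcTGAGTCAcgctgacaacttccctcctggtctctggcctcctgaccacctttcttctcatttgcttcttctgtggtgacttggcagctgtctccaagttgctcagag
The match began at base 259 of the window for *Gpnmb*, at base 214 for *Igf1* and at base 195 for *Itgax*. In GENCODE M21 the *Igf1* gene begins at chr10:87858265, so its window lies inside the gene at a start further downstream. The bases around the upstream end of *Igf1* were not searched. CAGAC, the short element that SMAD3 binds, was in 4 of the 9 promoters (both of *Spp1* and those of *Itgax* and *Ch25h*) and in 49.6% of all promoters. GAGGAA, a core of PU.1 sites, was in 2 of the 9 and in 28.3% of all. CACGTG and CATGTG, the E-boxes read by MITF and TFE factors, were in none of the 9, against 7.15% and 14.2% of all promoters. All patterns were searched on both strands, and none contains another. A match describes the letters of the window and does not show binding.

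*Lyz2* and *Lyz1* encode lysozyme, which cleaves bacterial cell walls. *Lyz2* is the lysozyme of macrophages, and *Lyz1* is known from Paneth cells of the gut. They are neighbours on the minus strand of chromosome 10, at chr10:117277331-117282321 for *Lyz2* and chr10:117287797-117292868 for *Lyz1*. *Lyz2* stood at 1594, 2459, 1239 and 1328 CPM in the controls and at 9132, 8638, 11826 and 12628 CPM in the mutants. *Lyz1* stood at 291, 455, 226 and 260 CPM in the controls and at 1713, 1616, 2182 and 2331 CPM in the mutants. For both genes every mutant was far above every control, and control 2 was the highest control for each. Their log2 fold changes were nearly equal, 2.67 with a standard error of 0.27 for *Lyz2* (adjusted p = 3.7e-04) and 2.67 with a standard error of 0.26 for *Lyz1* (adjusted p = 3.0e-04). Counts on both together made up between 0.128% and 0.292% of a control library and between 1.13% and 1.52% of a mutant library. Control 2, the highest control for lysozyme, also had the highest summed monocyte and neutrophil markers (1873 CPM), cells that are rich in *Lyz2*, and their part in its lysozyme level was not tested. In the mutants the sums of those markers lay between 305 and 890 CPM. The summed border macrophage markers were higher in the same mutants, and the part of either cell type in the change was not tested.

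The share of *Lyz1* in the counts of both genes was nearly constant. It was 15.4%, 15.6%, 15.4% and 16.4% in the controls and 15.8%, 15.8%, 15.6% and 15.6% in the mutants. The means were 15.7% ± 0.457 in controls and 15.7% ± 0.117 in mutants (SD, n = 4), and the difference of -0.034 percentage points was smaller than the spread between mice (two-sided exact permutation test over 70 splits, p = 0.943, smallest possible p = 0.0286). Of the 50-base words in the annotated exons of *Lyz1*, 16.1% also occur in *Lyz2*, and 15.4% of those of *Lyz2* occur in *Lyz1*, so reads from these stretches could be placed on either gene. Their promoters are alike as well. In a global alignment of the RefSeq promoters, 249 of 298 aligned bases (83.6%) were identical, with 4 gap bases. Both promoters are shown in the direction of transcription (minus strand), with bases that differ or are unpaired in the alignment in capitals.
Lyz1, chr10:117292819-117293118: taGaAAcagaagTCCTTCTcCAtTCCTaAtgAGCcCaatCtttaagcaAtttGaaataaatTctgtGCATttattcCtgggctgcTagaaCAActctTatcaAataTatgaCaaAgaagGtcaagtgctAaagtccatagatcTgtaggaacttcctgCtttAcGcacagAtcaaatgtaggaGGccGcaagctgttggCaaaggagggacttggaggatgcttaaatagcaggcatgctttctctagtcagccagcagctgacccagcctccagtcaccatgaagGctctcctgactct
Lyz2, chr10:117282223-117282522: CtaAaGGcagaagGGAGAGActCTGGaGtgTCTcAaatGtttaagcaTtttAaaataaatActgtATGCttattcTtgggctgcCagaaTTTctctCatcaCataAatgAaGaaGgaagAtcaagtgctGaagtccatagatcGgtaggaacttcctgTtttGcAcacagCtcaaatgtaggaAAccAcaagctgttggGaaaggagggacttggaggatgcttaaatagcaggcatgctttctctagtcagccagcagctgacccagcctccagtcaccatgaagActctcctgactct
The differences gather in the upstream bases, with 9 of the 51 capitals of each promoter in its last 150 bases. None of the 5 patterns above was found in either promoter. Whether *Lyz1* was transcribed in these cells, or drew its counts from *Lyz2* transcripts, was not tested.

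**Figure D3:**
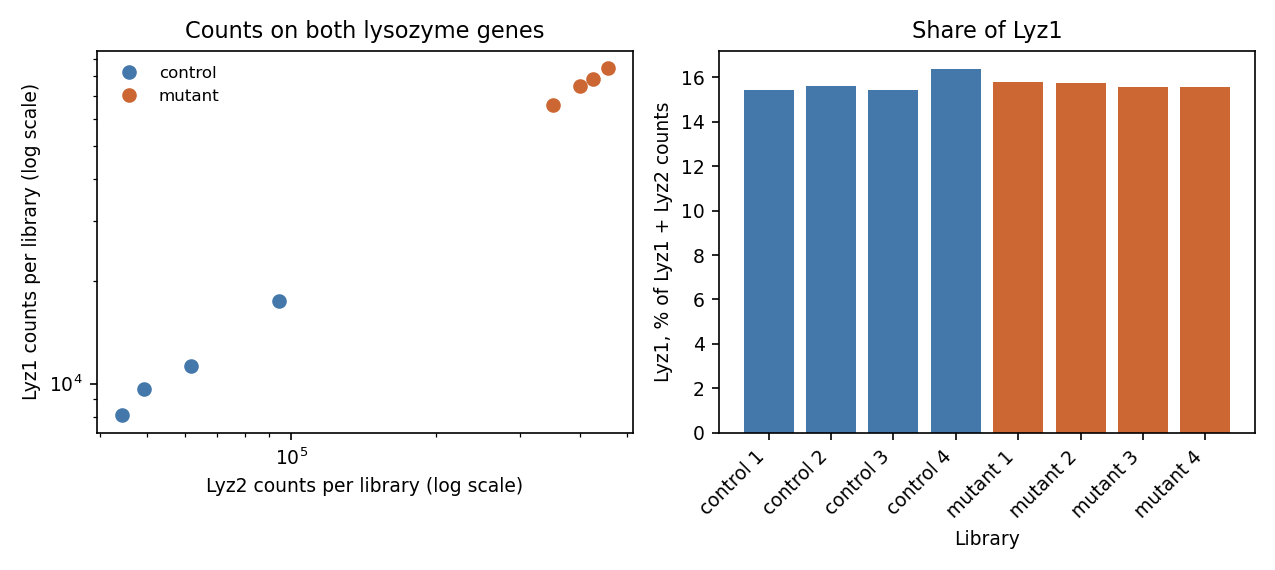
Left, counts on Lyz1 against counts on Lyz2 in each library (both axes log scale). Right, Lyz1 as a percentage of the counts on both genes, which stays between 15.4% and 16.4% in all 8 libraries although the mutants hold several times as many counts.

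*Fabp5* and *Lpl* serve lipid handling. *Fabp5* encodes a fatty acid binding protein of the cytosol that is also made by glia and neural progenitors. It stood at 30.6, 10.9, 5.46 and 7.72 CPM in the controls and at 34.6, 33.4, 20.3 and 27.5 CPM in the mutants. Control 1 lay among the mutants, while the other 3 controls were below all of them. The log2 fold change was 1.08 with a standard error of 0.50 and had no call (adjusted p = 0.192), but without control 1 it was 1.85 with a standard error of 0.31 (adjusted p = 0.00854). The sum of 18 oligodendrocyte, neuron and astrocyte markers was 5705 CPM in control 1 and lay between 915 and 2196 CPM in the other controls, and it was 4839 CPM in mutant 1 and between 1489 and 2756 CPM in the other mutants. None of the 18 was called, none was at 0 in all libraries, and their part in the level of *Fabp5* was not tested.

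**Figure D4:**
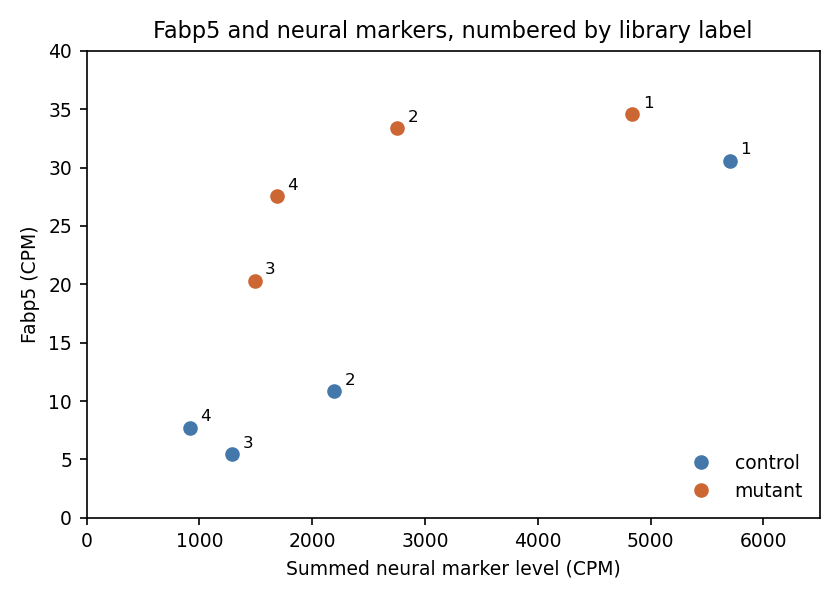
Fabp5 (CPM) against the summed level of 18 neural markers (CPM) in each library, numbered as in the labels. Control 1 has the highest marker sum, 5705 CPM, and is the single control that overlaps the mutants in Fabp5.

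*Lpl* encodes lipoprotein lipase, the enzyme that releases fatty acids from lipoprotein triglyceride. It stood at 5.64, 12, 8.90 and 32.2 CPM in the controls and at 24.3, 15.6, 2.65 and 11.2 CPM in the mutants. The groups overlapped over most of their range, with control 4 the highest of the 8 libraries and mutant 3 the lowest. *Lpl* had a log2 fold change of -0.13 with a standard error of 0.68 (adjusted p = 0.932), and its sign turned without control 4 (0.64) and without mutant 3 (0.22). At this spread between mice no direction could be given for *Lpl*.

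Of 11 further genes of lipoprotein and fatty acid handling, 9 were tested and 1 was called (11.1%, against 12.3% of all genes). It was *Fabp3* (log2 fold change 1.51, adjusted p = 0.0359), another cytosolic fatty acid binding protein, named after its value was seen, and its adjusted p was 0.05 or above in 6 of the 8 fits that left out a library. Opposite-strand genes overlap 19.6% of its exon bases. The median of the 9 was 0.46. *Gpihbp1*, the endothelial anchor of lipoprotein lipase, and *Apoc2*, its cofactor, also named after their values were seen, did not pass the filter. A same-strand gene, *Gm44805*, overlaps 79.5% of the exon bases of *Apoc2*. Reads of that overlap could be left uncounted or placed on either gene, so the low counts of *Apoc2* need not mean low expression.

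*Itgax* encodes CD11c, the integrin alpha chain that marks a microglia subset of the early postnatal white matter and also dendritic cells. It stood at 2.64, 8.38, 10.5 and 15.3 CPM in the controls and at 1.20, 3.00, 1.20 and 0.193 CPM in the mutants. Mutant 2 was above control 1, and all other mutants were below all controls. The log2 fold change was -2.71 with a standard error of 0.78 and just missed the threshold (adjusted p = 0.0529). It was called without control 1 (-3.02, adjusted p = 0.0363), without mutant 2 (-3.41, adjusted p = 0.0422) and with DESeq2 (-2.71, adjusted p = 0.00204), which called 4281 of all genes against 2485 with edgeR. Part of the exon sequence, 8.02% of 50-base words, is shared with other genes, chiefly its neighbour *Itgad*. The dendritic cell markers summed to between 16.2 and 45.5 CPM in controls and between 24.9 and 41.4 CPM in mutants, with no call among the 5 of 6 tested. The beta chain that pairs with CD11c, *Itgb2*, was lower (log2 fold change -1.38, adjusted p = 0.0104). So was *Itgam*, which encodes the alpha chain CD11b (-2.51, adjusted p = 9.8e-05), and CD11b was also used in the sort. The same-strand predicted gene *Gm49368* overlaps 68.7% of the exon bases of *Itgam*, so reads of the overlap could be left uncounted or placed on either gene. *Itgal*, the alpha chain of LFA-1, was higher (2.52, adjusted p = 0.00519), so the alpha chains that share this beta chain did not move together.

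*Csf1* was the 1 gene of the 10 called lower. It encodes macrophage colony-stimulating factor, a ligand of the receptor on which microglia depend for survival. It stood at 34.7, 32.7, 39.6 and 30.1 CPM in the controls and at 4.49, 8.19, 9.97 and 2.32 CPM in the mutants. The highest mutant was well below the lowest control, and the mean was 5.49-fold lower. *Csf1* had a log2 fold change of -2.46 with a standard error of 0.41 (adjusted p = 0.00525), and the call was kept in all 8 fits that left out a library, with values between -2.77 and -2.18. Its receptor gene *Csf1r* was lower as well (log2 fold change -1.32, adjusted p = 0.00998), with 8136 ± 1941 CPM among the controls and 3248 ± 890 CPM among the mutants (SD, n = 4). Exons of *Hmgxb3* on the opposite strand overlap 15.1% of the exon bases of *Csf1r*.

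Genes that work with the 10 were listed by pathway, and 48 of the 53 passed the filter, of which 13 were called higher, 7 lower and 28 not (41.7% called, against 12.3% of all genes). Their median log2 fold change was 0.44, and the 13 fell to 7 without control 2 and to 8 without control 1, mutant 1 or mutant 3. The pathway lists were also chosen with results of these data known, so these shares describe the lists. Among 7 osteopontin receptors, 3 were higher and 2 lower. *Cd44* was higher (log2 fold change 2.92, adjusted p = 9.1e-04) and stood at 18.5 ± 7.67 CPM in controls and 140 ± 41.5 CPM in mutants. *Itgb3*, the beta chain of the vitronectin receptor, stood at 18.7, 24.9, 28.7 and 28.1 CPM in the controls and at 0, 0.648, 0.139 and 0.0276 CPM in the mutants, where the counts were 0, 30, 5 and 1. Mutant 2 held most of the mutant counts, and the log2 fold change of -6.85 (adjusted p = 0.00178) was -8.76 without it. *Itgb3* passed the filter on low counts through the controls, so the size of its change rests on few mutant counts. *Itgav*, its alpha chain, had no call (0.25, adjusted p = 0.316). In the insulin-like growth factor axis 2 of 11 tested genes were higher and none lower (18.2% called), and neither the receptor gene *Igf1r* (0.39, adjusted p = 0.553) nor the binding protein gene *Igfbp2* (0.79, adjusted p = 0.117) was called, whereas the ligand *Igf1* itself was.

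In the oxysterol axis, 3 of 8 tested genes were higher and none was lower (37.5% called, against 12.3% of all genes). *Nr1h3*, which encodes the oxysterol receptor LXRα, rose from 1.58 ± 1.16 to 19.7 ± 6.21 CPM (log2 fold change 3.64, adjusted p = 0.0346). Its adjusted p was 0.05 or above in 6 of the 8 fits that left out a library, between 0.0544 without control 1 and 0.0952 without control 2, the others being those without control 3 and without mutants 1, 2 and 3. The LXR target *Abca1*, a cholesterol exporter, had no call (0.72, adjusted p = 0.0715), and neither did *Gpr183*, the receptor of an oxysterol made from 25-hydroxycholesterol (-0.44, adjusted p = 0.147). Of the MiT/TFE factors that drive lysosomal genes, *Gpnmb* among them, *Tfec* was higher (2.94, adjusted p = 0.00269), 2 of the other 3 were lower and 1 had no call.

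**Figure D5:**
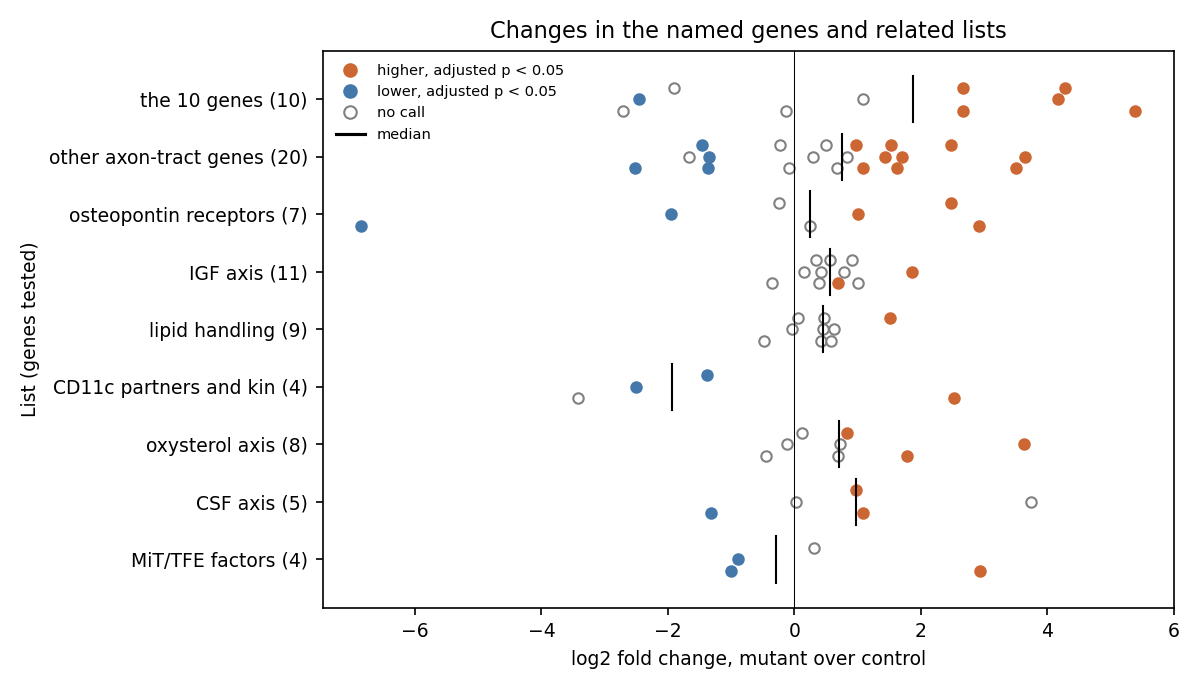
Log2 fold changes of the tested genes in each list, with filled points for calls and a bar at the list's median. The lists spread to both sides of 0, from Itgb3 at -6.85 to Ch25h at 5.39.

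A second set of 20 genes that axon-tract microglia are known for was likewise divided. All 20 were tested, 9 were higher, 4 lower and 7 without a call (65% called, against 12.3% of all genes), with a median log2 fold change of 0.75. This list, too, was chosen with results of these data known, so these shares describe the list. *Lilrb4a*, an inhibitory receptor, rose by 3.65 (adjusted p = 0.00148), from 4.89 ± 2.01 to 61.7 ± 30.2 CPM. *Apoe*, the lipid carrier apolipoprotein E, rose by 3.50 (adjusted p = 6.3e-05), from 4138 ± 1050 to 46910 ± 4961 CPM. The beta-glucan receptor gene *Clec7a* (2.47, adjusted p = 0.00133), *Anxa5* (1.71, adjusted p = 0.00227), which encodes a phosphatidylserine-binding annexin, and the galectin gene *Lgals1* (1.63, adjusted p = 0.0168, but 0.0517 without control 2) were higher too. The lysosomal protease gene *Ctsd* went the other way (-2.52, adjusted p = 9.4e-05), from 9273 ± 1935 to 1619 ± 113 CPM. The remaining genes called lower, named after their values were seen, were *Cd9*, *Ctsl* and *Trem2*, at log2 fold changes between -1.47 and -1.35. The lysosomal genes *Ctsb* (0.50, adjusted p = 0.0874), *Cd68* (0.68, adjusted p = 0.0535) and *Lamp1* (-0.23, adjusted p = 0.396) had no call, although *Ctsb* and *Cd68* were called with DESeq2. Predicted genes overlap 37.8% of the exon bases of *Lilrb4a*, 34.4% of those of *Ctsd* and 32.9% of those of *Ctsl*. Reads of these overlaps could be left uncounted or placed on either gene.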

How the data were processed

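Sorted microglia of 4 mutant and 4 control mice were profiled by RNA-seq. By the Methods, the alignment to mm10 used Rsubread, and the authors deposited raw featureCounts counts, not normalized. The Methods describe polyA-selected, paired-end NEBNext Ultra II libraries and the labels single-end Nextera XT libraries, both unstranded. The data statement of the paper names another deposit for these mutants, and the libraries were matched by genotype and cell type. The submitters' processing notes name DESeq2 1.28. A deposited table of the authors' own comparison, holding fold changes and p-values, was not used.

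Genes reaching 10 counts in 4 or more of 8 libraries were tested with edgeR 4.0.16 in R 4.3.3 (TMM, glmQLFit and glmQLFTest, no block, Benjamini-Hochberg), and the fit was checked on simulated data. In that check, made on a single simulated set, a larger share of the calls was false with DESeq2 than with edgeR. Of the changes put into the simulated data, edgeR recovered a smaller share than DESeq2, so a gene without a call can still have changed. The biological coefficient of variation was 0.542. Every depth limit for a count of 0 is 3 counts and covers counting error only. The 10 genes, the lists and the tests were chosen with earlier results of these data known. Beyond the 10 genes and their receptors, text names the 6 called genes with the largest change and the 3 uncalled ones with the highest level, from the second axon-tract list and from the partner lists, and others are marked. Exon overlaps and shared 50-base words were read from GENCODE M21. Alternatives were DESeq2 1.42.0, RLE factors, library totals, no filter, a filter on all 8 libraries, a block for the replicate number, and each library left out with the tested genes kept. Tables, the permutation test and plots were made in Python 3.11.15 with numpy 2.4.6, pandas 2.3.3, matplotlib 3.10.9 and scipy 1.17.1.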

Additional observations from a re-analysis of the deposited data

How the results depend on the processing

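Of the 10 genes, 5 were higher under every alternative except the filter that asks 10 counts of every library, where 3 were, since *Gpnmb* and *Ch25h* are no longer tested there, and the fits that left out a library, where between 4 and 6 were. Without control 1 the count was 6, with *Fabp5* added, and without control 2, control 3 or mutant 2 it was 4, with *Gpnmb* lost. The number of genes called lower was 1, or 2 with DESeq2 and between 1 and 2 without a library, *Itgax* being the added gene. DESeq2 called 4281 of all genes, against 2485. Leaving out a library gave between 1567 (control 3) and 2499 calls (mutant 1), and 1572 without control 2. The second axon-tract list then had between 8 and 10 genes higher, and the partner lists between 7 (control 2) and 12, against 13, with 8 without control 1, mutant 1 or mutant 3. DESeq2 added calls for *Cd68*, *Ctsb*, *Abca1* and *Igfbp2* (adjusted p = 0.00761, 0.0188, 0.0191 and 0.0335). The difference in the share of *Lyz1* lay between -0.132 and 0.189 percentage points, turning sign without control 4 (0.189) and without mutant 3 (0.000607), and the log2 fold change of *Lpl*, between -0.58 and 0.64 over these fits, then turned to 0.64 and 0.22. Scaling by library totals moved the median log2 fold change of all genes from 0.01 to 0.13. The calls of *Cd68*, *Ctsb* and *Abca1* then appeared, at adjusted p = 0.0197, 0.0229 and 0.0328. *Cd68* (0.0472) and *Abca1* (0.0462) were also called under the filter on every library, and *Cd68* without control 3 (0.0354), while *Smad3*, *Irs2* and *Itga9* lost their calls with no filter (0.0510, 0.0845 and 0.0547). Same-numbered libraries correlated in their deviations from the group means by 0.166, 0.0183, 0.144 and 0.114, so not every pair deviated together, and the library best correlated was the one of the same number in 6 of 8. The mean correlation of same-numbered libraries, 0.111, was the highest among the 24 possible pairings of controls with mutants. Under a block for the replicate number, 2383 genes were called, 2001 of them shared with the fit without it. The 10 genes kept 5 calls higher and 1 lower under the block, with log2 fold changes of 4.85 for *Gpnmb* (adjusted p = 0.0240), 6.07 for *Ch25h* (0.0197) and 1.39 for *Fabp5* (0.0518), and of 54 genes checked 53 kept their side of the threshold, *Cd68* being the exception (0.0461). Low counts limit *Spp1*, *Itgax*, and the control levels of *Gpnmb* and *Ch25h*.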

Other observations

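Further genes of the same lists were called and are named here after their values were seen. In the insulin-like growth factor axis the calls were *Igfbp4*, a binding protein (log2 fold change 1.85, adjusted p = 8.9e-04), and *Irs2*, an adaptor of the insulin and IGF1 receptors (0.69, adjusted p = 0.0475). In the oxysterol axis they were *Cyp27a1*, which makes 27-hydroxycholesterol (1.78, adjusted p = 0.0021), and the cholesterol exporter gene *Abcg1* (0.84, adjusted p = 0.0171). In the colony-stimulating factor axis, both chains of the GM-CSF receptor were higher, *Csf2ra* by 1.09 (adjusted p = 0.0240) and *Csf2rb* by 0.97 (adjusted p = 0.0280), while *Csf1r* was lower. Among osteopontin receptors, the integrin genes *Itga4* (2.48, adjusted p = 0.0151) and *Itga9* (1.01, adjusted p = 0.0407) were higher and *Itgb5* (-1.96, adjusted p = 8.9e-04) was lower. The MiT/TFE genes called lower were *Tfeb* (-0.90, adjusted p = 0.00307) and *Tfe3* (-1.0, adjusted p = 0.00428), whereas *Mitf* had no call (0.30, adjusted p = 0.374). From the second axon-tract list, the lipid droplet coat gene *Plin2* (1.53, adjusted p = 0.00176), the chemokine gene *Ccl3* (1.43, adjusted p = 0.00306), the tetraspanin gene *Cd63* (1.08, adjusted p = 0.00696) and the galectin gene *Lgals3* (0.97, adjusted p = 0.0252) were higher. All of these are from edgeR's quasi-likelihood test. Of the 8 fits that left out a library, the adjusted p was 0.05 or above in 7 for *Irs2*, 5 for *Itga9*, 4 each for *Csf2ra* and *Csf2rb*, 3 for *Lgals3* and 1 for *Abcg1*, and in none for the other genes named here as called.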
